A study of Mus musculus with 6 samples.

Results

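The amino acid transporter genes examined here were the members of 7 solute carrier (Slc) families that carry amino acids or closely related molecules. They were the protein-coding genes of the count table whose symbol began with Slc1a, Slc3a, Slc6a, Slc7a, Slc36a, Slc38a or Slc43a and a number. This rule took 64 of the 40166 genes in the table (20157 of them protein-coding). Of the 64 genes, 63 code for transporters or their partner chains, and 1, *Slc7a6os*, was matched by its letters alone: it lies beside *Slc7a6* and codes for a nuclear import factor of RNA polymerase II. RNA was measured in bulk in 6 YUMM3.3 tumors, each grown under the skin of C57BL/6 mice from a *Braf*-mutant mouse melanoma line. The 3 vehicle tumors (replicates 7, 8 and 9) came from mice given H2O, and the 3 RGS tumors (replicates 10, 11 and 12) from mice given rigosertib (RGS), a RAS mimetic, at 300 mg/kg. Both groups were dosed by oral gavage on 5 days a week and sampled at day 17. The comparison asks how the drug changed transcripts in the whole tumor, and the labels do not tie a replicate to a single mouse, so p-values measure the spread between these 6 samples.

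Cells take up amino acids through membrane carriers that differ in substrate and driving force. *Slc3a2* codes for a heavy chain that brings light chains of the Slc7 family to the cell surface, among them LAT1 (*Slc7a5*), which exchanges glutamine for leucine and other large neutral amino acids, and xCT (*Slc7a11*), which exchanges glutamate for cystine, a source of cysteine for glutathione. ASCT2 (*Slc1a5*) and the SNAT carriers (*Slc38a1*, *Slc38a2*) bring in glutamine with sodium, and many tumors carry large amounts of LAT1 and ASCT2. When amino acids run short, the transcription factor ATF4 raises many of these carriers together with the enzymes that make amino acids, while leucine and arginine in the cell keep the growth kinase mTORC1 active.

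Assigned reads per tumor totalled 22793087 to 32555494 with vehicle and 13837932 to 21617368 with RGS. The depths did not overlap, and sequencing depth and drug cannot be told apart. Mitochondrially encoded transcripts were 2.52% ± 0.589 of counts with vehicle and 7.02% ± 1.33 with RGS (SD, n = 3 each), and ribosomal protein transcripts 8.09% ± 2.29 and 3.37% ± 0.272. Of 8 melanocyte markers, *Mlana*, *Tyr* and *Dct* had 0 counts in all 6 tumors, whereas *Mitf* had between 74 and 261 counts and *Pmel* at most 25, and of 9 T and NK cell markers 7 had 0, *Cd3e* and *Cd8a* included. The macrophage markers *Adgre1* and *C1qc* also had 0 counts in every tumor, while *Cd68* had between 917 and 2265. The labelled tissue, melanoma tumor, thus lacked these pigment cell and leukocyte transcripts, while *Mitf* was present. In bulk RNA, fewer cells of a type and less RNA per cell cannot be told apart.

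Among the members, 21 were without a single count, and another 8 had counts (at most 46 in a tumor) but missed the filter, a median of at least 5 counts in at least 1 group. The remaining 35 were compared by the quasi-likelihood F test of edgeR, and p-values were adjusted by Benjamini-Hochberg over all 15355 tested genes. At an adjusted p under 0.05, 7 of the 35 (20.0%) rose with RGS, against 16.3% of all tested genes. Another 5 (14.3%) fell, against 16.5% of all tested genes, and 23 passed in neither direction. The groups did not overlap for 16 of the 35 genes, 9 of them higher and 7 lower with RGS, against 45.8% of all tested genes. The median log2 fold change of the 35 genes was 0.03, beside -0.05 over all tested genes. The shares called were close to the background in both directions. The 7 genes that rose were *Slc7a11*, *Slc38a1*, *Slc38a10*, *Slc6a4*, *Slc6a6*, *Slc6a8* and *Slc6a17*, and the 5 that fell were *Slc1a4*, *Slc1a5*, *Slc7a3*, *Slc7a5* and *Slc7a6os*. Of the transporters that rose, 4 belong to the Slc6 family, and of those that fell 2 belong to Slc1 and 2 to Slc7. Together the members held 0.252% ± 0.0443 of all counts with vehicle and 0.305% ± 0.0274 with RGS (SD, n = 3 each), and the groups overlapped.

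**Figure D1:**
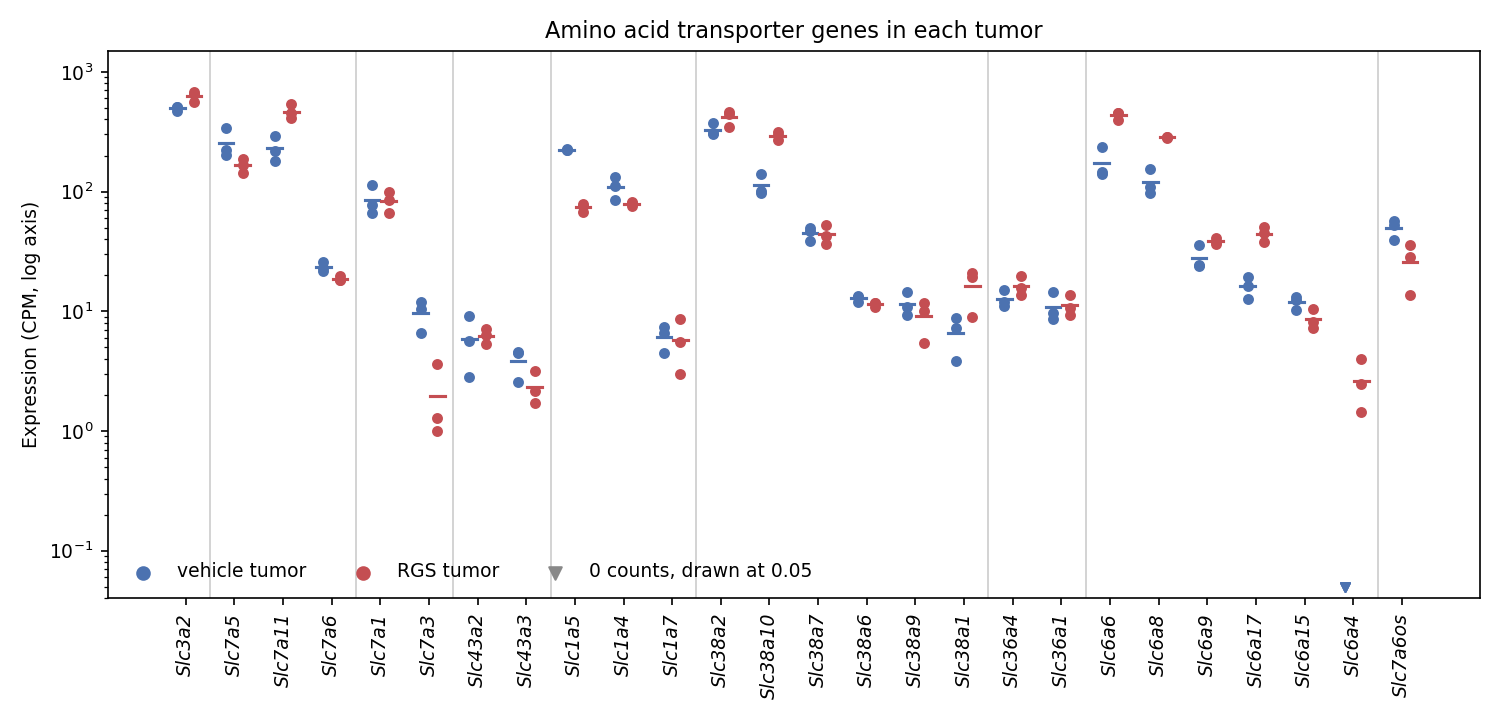
Expression of the 26 tested members with a mean of at least 1 CPM in a group, in CPM (counts scaled to the TMM-adjusted library size) on a log axis. Each point is 1 tumor, horizontal lines are the means of 3 tumors, and grey lines part the roles. *Slc1a5* sits between 221 and 228 CPM with vehicle and between 67.4 and 78.6 CPM with RGS, and *Slc6a4* has 0 counts in every vehicle tumor (triangle).

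Among the heavy chains, *Slc3a2* was expressed at 506, 513 and 472 CPM in vehicle tumors 7, 8 and 9 and at 564, 653 and 674 CPM in RGS tumors 10, 11 and 12. All 3 RGS tumors were above all 3 vehicle tumors, but by a small margin. The log2 fold change was 0.34 (SE 0.15), which missed the threshold in edgeR (adjusted p = 0.0808). It passed with DESeq2 (adjusted p = 0.0263) and with limma voom (0.0129), and in edgeR without vehicle tumor 7 (log2 fold change 0.35, adjusted p = 0.0275). The other heavy chain, *Slc3a1*, serves cystine and dibasic amino acid uptake in kidney and gut and had at most 35 counts in a tumor.

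The light chains moved in opposite directions. *Slc7a5*, which codes for LAT1, was at 338, 221 and 204 CPM with vehicle and at 187, 167 and 143 CPM with RGS. The vehicle tumors were all higher, and vehicle tumor 7 stood well above the other 2. *Slc7a5* fell by 0.62 on the log2 scale (SE 0.19, edgeR adjusted p = 0.0158). Without vehicle tumor 7 the fall was 0.36 on the log2 scale and missed the threshold (edgeR adjusted p = 0.0510), and without RGS tumor 12 it also missed it (log2 fold change -0.54, adjusted p = 0.0712).

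*Slc7a11*, which codes for xCT, was at 293, 217 and 180.1 CPM with vehicle and at 537, 449.7 and 408 CPM with RGS. The lowest RGS tumor was above the highest vehicle tumor. *Slc7a11* rose 2.02-fold (log2 fold change 1.01, SE 0.18, edgeR adjusted p = 0.000269), and it passed the threshold under every alternative tried. Of the other light chains, *Slc7a6*, an exchanger of dibasic against neutral amino acids, was at 21.8, 25.7 and 22.9 CPM with vehicle and at 19.6, 18.3 and 18.1 CPM with RGS. Its groups did not overlap, but its log2 fold change of -0.33 (SE 0.22) did not pass the threshold (edgeR adjusted p = 0.268). *Slc7a7*, the related exchanger of kidney, gut and macrophages, had between 1 and 37 counts per tumor and shares 232 exon bases with *Oxa1l* on the opposite strand, a gene with a mean of 1149 counts. *Slc7a8*, a second large neutral amino acid exchanger, reached 9 counts in vehicle tumor 8 and at most 2 in the other tumors, and *Slc7a9*, *Slc7a10* and *Slc7a12* had 0 in all 6 tumors.

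Levels of different genes were compared per length, in RPKM (CPM divided by gene length in kilobases), where the length of a gene counts all of its annotated exons. The 6 known partners of the *Slc3a2* chain that the rule took (*Slc7a5*, *Slc7a6*, *Slc7a7*, *Slc7a8*, *Slc7a10* and *Slc7a11*) were summed in each tumor. *Slc7a5* made up 77.7%, 73.5% and 75.4% of this RPKM sum in the vehicle tumors and 53.9%, 55.2% and 53.7% in the RGS tumors. *Slc7a11* made up 17.9%, 19.3% and 17.7% with vehicle and 41.3%, 39.7% and 40.7% with RGS. The shares hardly varied within a group, and the groups were far apart for both genes. Together these genes made up most of each sum, so a higher share of either goes with a lower share of the other. Both had also been called in opposite directions above, so the shares restate those calls and are not separate support. With 3 tumors against 3, the exact two-sided permutation p for each was 0.1, the smallest this design allows.

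**Figure D2:**
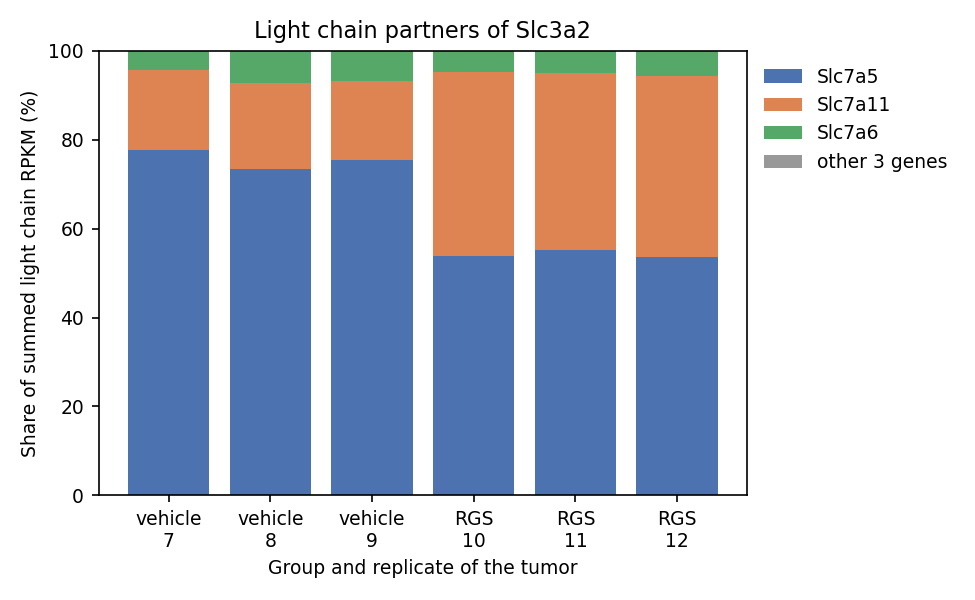
Share of each light chain in the summed RPKM of the 6 partners of *Slc3a2*, in percent, with 1 bar per tumor. The *Slc7a11* segment spans 17.7 to 19.3% of the bar in the vehicle tumors and 39.7 to 41.3% in the RGS tumors, and *Slc7a5* gives up most of that room. The other 3 genes together are too low to be seen.

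A ratio of 2 genes within a tumor does not depend on how libraries were scaled. The RPKM ratio of *Slc7a11* to *Slc7a5* was 0.231, 0.262 and 0.235 with vehicle and 0.766, 0.718 and 0.759 with RGS, a 3.08-fold difference. *Slc7a5* per *Slc3a2* was 0.486 ± 0.130 with vehicle and 0.253 ± 0.0572 with RGS (SD, n = 3 each), and *Slc7a11* per *Slc3a2* was 0.117 ± 0.0263 and 0.190 ± 0.0460. *Slc7a5* thus lost and *Slc7a11* gained against the heavy chain transcript, and the groups overlapped for neither ratio. For *Slc7a11* per *Slc3a2* the gap was small, with vehicle tumor 7 at 0.147 and RGS tumor 12 at 0.153. Of the 5 ratios computed, each gave an exact two-sided permutation p of 0.1, the smallest possible, and 0.1 after Benjamini-Hochberg adjustment. Each pair held a gene called in these same data, so the ratios are not separate support for those calls.

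The start of *Slc7a11* carries paired copies of the C/EBP-ATF element, the sequence that ATF4 and its partners are known to bind, and is shown because the light chain that rose is a textbook target of that factor. The element was searched as TGATGNAA on both strands in RefSeq promoters of GRCm38.p6, from 250 bases before to 50 bases after each start. It occurred in 3.97% of 32851 promoters and in 7.46% of the 67 promoters of members. The latter share stands for only 5 promoters of 4 genes, with *Slc7a7* counted more than once. This element was picked from 5 motifs searched. Of the others, the E-box was in 13.4% of member promoters (7.15% of all) and the AP-1 element in 13.4% (7.81%). The antioxidant element was in 16.4% (12.4%) and the cAMP element in 1.49% (1.79%). Promoters were matched for 46 of the 64 members and for 25 of the 35 tested ones. Those of *Slc1a4*, *Slc7a7* and *Slc7a11* were the ones among the 25 that held the C/EBP-ATF element. Tested members with no entry were *Slc1a5*, *Slc6a6*, *Slc6a8*, *Slc6a15*, *Slc7a3*, *Slc7a4*, *Slc7a5*, *Slc38a1*, *Slc38a3* and *Slc43a3*. In *Slc7a11* (chr3:50443637-50443695, minus strand) the matches, in capitals, begin 66 and 47 bases before the start, and the second one reads on the opposite strand:
Slc7a11: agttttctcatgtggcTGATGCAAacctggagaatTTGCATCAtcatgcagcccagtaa
Of the amino acid response genes described further on, 8 of 26 with a promoter entry (30.8%) held the element, against 4.51% of all genes with one. *Asns* (chr6:7693213-7693244, minus strand) and *Chac1* (chr2:119351037-119351068, plus strand) fell with RGS, and *Nupr1* (chr7:126625561-126625592, minus strand) rose. Each is printed with its match in capitals and with 12 bases on each side:
Asns: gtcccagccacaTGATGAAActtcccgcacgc
Chac1: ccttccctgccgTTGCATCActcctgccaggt
Nupr1: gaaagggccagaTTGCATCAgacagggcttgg
Of the 8 response genes with the element, 6 fell, 1 (*Nupr1*) rose and 1 (*Atf3*) did not pass. *Fgf21*, among the 6 that fell, had 53, 11 and 5 counts with vehicle and 0 in every RGS tumor. It passed the filter through the vehicle tumors only, so it could hardly be called higher. A match describes letters in a window and does not show binding.

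Among the cationic amino acid transporters, which carry arginine and lysine, *Slc7a1* (CAT1, the widespread form) was at 114, 76.9 and 66.6 CPM with vehicle and at 98.7, 85.2 and 66.1 CPM with RGS. The groups overlapped, and the log2 fold change was -0.04 with a 95% interval from -0.44 to 0.36. *Slc7a3* (CAT3), a form best known from brain, was at 10.4, 6.63 and 12 CPM with vehicle and at 0.994, 3.62 and 1.28 CPM with RGS. Every RGS tumor was lower, and *Slc7a3* fell by 2.32 on the log2 scale (SE 0.50, edgeR adjusted p = 0.00153), the steepest fall among the 12 members called. *Slc7a2*, the arginine carrier of activated macrophages and liver, had 46, 0 and 0 counts with vehicle and 5, 3 and 0 with RGS and was not tested. *Slc7a4* and *Slc7a14* were tested at no more than 37 counts in a tumor and did not pass.

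The LAT3 and LAT4 genes did not pass, and 0 of the 3 had an unadjusted p under 0.05 in edgeR. *Slc43a2* (LAT4, a facilitator of large neutral amino acids) was at 9.16, 5.63 and 2.84 CPM with vehicle and at 7.10, 6.33 and 5.32 CPM with RGS, with a log2 fold change of 0.09 and a 95% interval from -0.77 to 0.94. *Slc43a1* (LAT3) had at most 24 counts in a tumor. *Slc43a3*, a purine nucleobase carrier despite its family, had a log2 fold change of -0.72 (SE 0.57).

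The neutral amino acid exchangers of the Slc1 family were lower with RGS. *Slc1a5* (ASCT2, chr7:16781340-16798274) was at 228, 221 and 222 CPM with vehicle and at 67.4, 75.9 and 78.6 CPM with RGS. The 3 tumors of each group lay close together, and the groups were far apart. *Slc1a5* was 3.03-fold lower with RGS (log2 fold change -1.60, SE 0.15, edgeR adjusted p = 2.84e-07). It stayed past the threshold under every alternative, with log2 fold changes from -1.74 to -1.54. *Slc1a4* (ASCT1, a carrier of alanine, serine, cysteine and threonine) was at 133, 111 and 84.8 CPM with vehicle and at 82.4, 80.1 and 75.9 CPM with RGS. The lowest vehicle tumor was just above the highest RGS tumor, and the change was -0.46 on the log2 scale (SE 0.18, edgeR adjusted p = 0.0494). This call was lost when any tumor other than vehicle tumor 9 was left out, with adjusted p between 0.0915 and 0.160 in edgeR.

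The glutamate carriers of the family were scarce. *Slc1a1* and *Slc1a3*, the carriers of kidney, neurons and glia, had 0 counts in all 6 tumors, as did *Slc1a6*. *Slc1a2* had at most 27 counts in a tumor. *Slc1a7* was at 7.34, 4.45 and 6.58 CPM with vehicle and at 8.66, 5.58 and 3.00 CPM with RGS, with overlapping groups and a log2 fold change of -0.09 (SE 0.44).

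The sodium-coupled Slc38 family held the other carriers of glutamine. *Slc38a2* (SNAT2), which is known to rise when amino acids run short, was at 375, 306 and 299.7 CPM with vehicle and at 462, 446 and 347 CPM with RGS. RGS tumor 12 fell among the vehicle tumors, and the log2 fold change of 0.36 (SE 0.16) missed the threshold (edgeR adjusted p = 0.0984). *Slc38a1* (SNAT1) was at 7.28, 8.77 and 3.87 CPM with vehicle and at 19.2, 20.9 and 8.93 CPM with RGS. The groups barely missed overlapping, since RGS tumor 12 was just above vehicle tumor 8. *Slc38a1* rose 2.45-fold (log2 fold change 1.30, SE 0.37, edgeR adjusted p = 0.0106), and the call was lost without RGS tumor 10 (adjusted p = 0.0564). *Slc38a1* remained far below *Slc1a5* per length: their RPKM ratio was 0.00718 ± 0.00274 with vehicle and 0.0544 ± 0.0233 with RGS (SD, n = 3 each). The RPKM ratio of *Slc38a2* to *Slc1a5* was 0.776, 0.654 and 0.636 with vehicle and 3.24, 2.77 and 2.08 with RGS. *Slc38a2* therefore lay below *Slc1a5* in every vehicle tumor and above it in every RGS tumor.

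*Slc38a10*, a member of less settled function that carries glutamine and related amino acids, was at 139.6, 97.4 and 101 CPM with vehicle and at 314, 297 and 267 CPM with RGS. Every RGS tumor was well above every vehicle tumor, and *Slc38a10* rose 2.60-fold (log2 fold change 1.38, SE 0.17, edgeR adjusted p = 5.52e-06). *Slc38a9*, the lysosomal carrier through which arginine is sensed by mTORC1, was at 10.8, 9.23 and 14.4 CPM with vehicle and at 10.1, 5.42 and 11.8 CPM with RGS. Its groups overlapped, with a log2 fold change of -0.32 and a 95% interval from -0.99 to 0.34. The glutamine carrier *Slc38a7* (log2 fold change -0.05, SE 0.19) and *Slc38a6* (-0.17, SE 0.27) did not pass. *Slc38a3*, the glutamine carrier of liver and kidney, and *Slc38a4* had at most 27 counts in a tumor, and *Slc38a5* had 0 in all 6.

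The proton-coupled Slc36 carriers can export amino acids from lysosomes. *Slc36a1* (PAT1) was at 14.4, 8.70 and 9.72 CPM with vehicle and at 10.6, 9.34 and 13.7 CPM with RGS, and its log2 fold change was 0.03 with a 95% interval from -0.57 to 0.64. *Slc36a4* was at 15.0, 11.2 and 11.9 CPM with vehicle and at 19.6, 13.6 and 15.7 CPM with RGS (log2 fold change 0.37, SE 0.27, edgeR adjusted p = 0.313). *Slc36a2* and *Slc36a3* had 0 counts in every tumor.

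**Figure D3:**
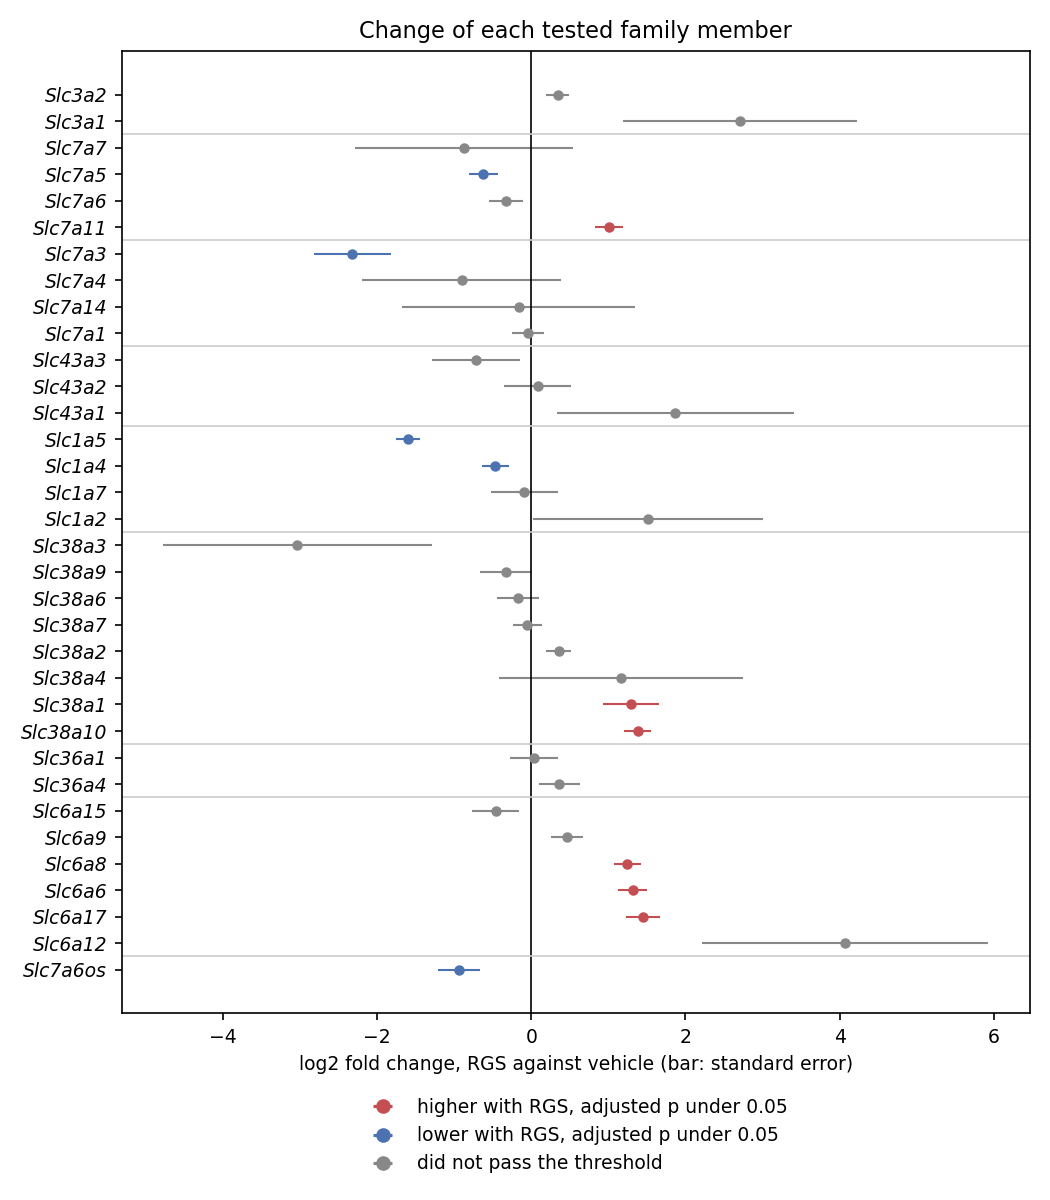
Log2 fold change of RGS against vehicle for 34 of the 35 tested members, grouped by role, with bars of 1 standard error from edgeR. *Slc6a4*, with 0 counts in all vehicle tumors, is left out. *Slc1a5* lies at -1.60 and *Slc7a5* at -0.62, while *Slc7a11*, *Slc38a1*, *Slc38a10*, *Slc6a8*, *Slc6a6* and *Slc6a17* lie between 1.01 and 1.46.

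The Slc6 family holds sodium- and chloride-coupled carriers of amino acids, osmolytes and transmitters. It gave 4 of the 7 members that rose, out of 7 tested, against 16.3% higher over all tested genes. Among those tested, *Slc6a4* and *Slc6a12* passed the filter through the RGS tumors only, so they could hardly be called lower. *Slc6a4* is among the 4 that rose, and its call is not separate support for a rise of the family. *Slc6a8*, the creatine transporter, was at 155, 109 and 98.0 CPM with vehicle and at 288, 288 and 282 CPM with RGS. *Slc6a6*, the taurine transporter, was at 237, 146 and 139.8 CPM with vehicle and at 451, 454 and 397 CPM with RGS. For both genes vehicle tumor 7 was the highest of its group and still below every RGS tumor. *Slc6a8* rose 2.37-fold (log2 fold change 1.24, SE 0.17, edgeR adjusted p = 2.39e-05), and *Slc6a6* rose 2.49-fold (log2 fold change 1.32, SE 0.19, adjusted p = 2.89e-05).

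*Slc6a17*, a carrier of neutral amino acids into the synaptic vesicles of neurons, was at 19.4, 16.2 and 12.7 CPM with vehicle and at 50.1, 44.8 and 37.8 CPM with RGS. The groups were clearly apart, and *Slc6a17* rose 2.74-fold (log2 fold change 1.46, SE 0.22, edgeR adjusted p = 5.21e-05). *Slc6a4*, the serotonin transporter of neurons, platelets and mast cells, was without a count in all 3 vehicle tumors and had 84, 19 and 40 counts in RGS tumors 10, 11 and 12. Against a floor of 3 counts per vehicle library it was at least 24.4-fold higher with RGS (edgeR adjusted p = 0.000340). Of 11 mast cell markers 8 had 0 counts in all 6 tumors, *Kit* and *Cpa3* included, while *Mcpt1*, a mast cell protease, had 0 counts in each vehicle tumor and 109, 73 and 75 with RGS. The part of other cell types in the *Slc6a4* result was not tested.

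*Slc6a9*, the glycine transporter GlyT1, was at 35.5, 24.3 and 23.8 CPM with vehicle and at 37.9, 40.8 and 36.65 CPM with RGS. The RGS tumors were all above the vehicle tumors, vehicle tumor 7 by little, and the log2 fold change of 0.46 (SE 0.21) missed the threshold (edgeR adjusted p = 0.0956). It passed without vehicle tumor 7 (log2 fold change 0.68, adjusted p = 0.0135). The exons of *Slc6a9* share 1429 bases with *Ccdc24* on the opposite strand, a gene with a mean of 8.67 counts. *Slc6a15*, a carrier of branched-chain amino acids, had a log2 fold change of -0.46 (SE 0.30), and *Slc6a12*, a carrier of betaine, had at most 30 counts in a tumor. The other 14 genes of the family, *Slc6a14* among them, were not tested, and 12 of the 14 had 0 counts in every tumor.

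The remaining gene of the pattern, *Slc7a6os*, was at 39.3, 57.2 and 52.9 CPM with vehicle and at 28.5, 35.9 and 13.6 CPM with RGS. The groups did not overlap, and *Slc7a6os* fell by 0.94 on the log2 scale (SE 0.27, edgeR adjusted p = 0.0117). Its neighbor *Slc7a6* did not pass.

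The order of the members by level per length changed with RGS. *Slc3a2* ranked first in both groups, at 141 ± 6.31 RPKM with vehicle and 179 ± 16.6 RPKM with RGS (SD, n = 3 each). With vehicle, *Slc7a5* ranked 2 at 68.6 ± 19.8 RPKM and *Slc1a5* ranked 3 at 53.6 ± 0.939 RPKM, and these neighbors lay within 1 SD of *Slc7a5* of each other. With RGS, *Slc6a8* ranked 2 at 54.9 ± 0.658 RPKM and *Slc6a6* ranked 3 at 51.3 ± 3.76 RPKM, again within 1 SD of *Slc6a6*. *Slc7a5* was then at rank 6, at 44.6 ± 5.87 RPKM, and *Slc1a5* at rank 9, at 17.7 ± 1.41 RPKM. *Slc38a2* ranked 4 in both groups. By mean level, ranks 2 and 3 were thus held by *Slc7a5* and *Slc1a5* with vehicle and by the creatine and taurine carriers with RGS. Ranks 2 to 6 lay close together with RGS, where *Slc38a2* was at 47.3 ± 7.02 RPKM and *Slc38a10* at 45.6 ± 3.73 RPKM.

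**Figure D4:**
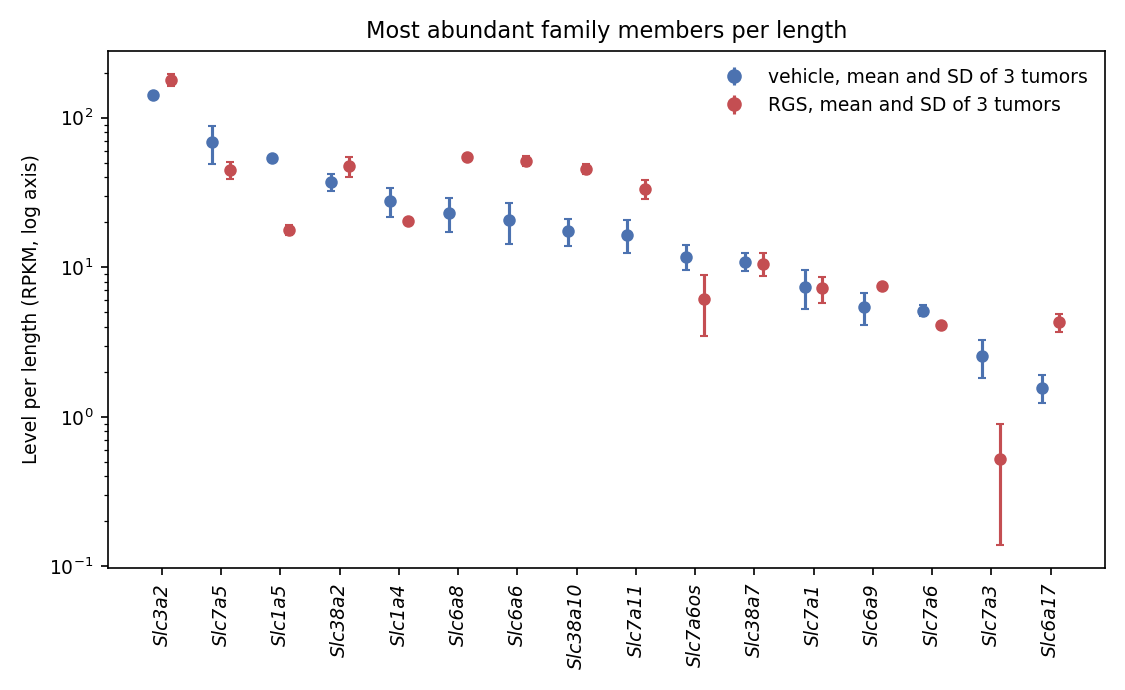
Level per length (RPKM, log axis) of the 16 members that ranked 15 or better by mean RPKM in at least 1 group, ordered by the vehicle mean. Points are means of 3 tumors and bars are 1 SD. *Slc7a5* drops from 68.6 to 44.6 RPKM and *Slc1a5* from 53.6 to 17.7, while *Slc6a8* climbs from 23.2 to 54.9.

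The genes around the carriers were read from 4 further lists. Amino acid response genes, that is ATF4, its targets and its regulators, were mostly lower: of 27 tested, 20 fell and 4 rose, against 16.5% and 16.3% of all tested genes. The median log2 fold change was -1.04 beside -0.05 over all tested genes. *Fgf21*, among the 20 that fell, passed the filter through the vehicle tumors only and could hardly be called higher. *Cth*, the enzyme that makes cysteine from cystathionine, was at 115, 132 and 139.7 CPM with vehicle and at 16.9, 12.4 and 17.1 CPM with RGS, a fall of 3.05 on the log2 scale. *Phgdh*, the first enzyme of serine synthesis, fell by 1.90 on the log2 scale, *Trib3*, a pseudokinase that restrains ATF4, by 1.93, and *Chac1*, which breaks down glutathione, by 1.68. *Cebpb*, a partner of ATF4, rose (log2 fold change 0.86), as did the stress factor *Nupr1* (0.87), the kinase gene *Eif2ak3* (1.05) and *Atf5* (0.64). *Atf4* itself was 698, 779 and 817 CPM with vehicle and 515, 528 and 618 CPM with RGS (log2 fold change -0.47, SE 0.15, edgeR adjusted p = 0.0220). *Slc7a11* therefore rose in tumors in which most listed ATF4 targets, with *Slc7a5* and *Slc1a5*, fell. The *Slc7a5* call was lost without vehicle tumor 7 or RGS tumor 12. *Slc7a11* was not alone among the carriers in not falling. *Slc3a2* (log2 fold change 0.34), *Slc38a2* (0.36), *Slc6a9* (0.46) and *Slc7a1* (-0.04) passed in neither direction in edgeR.

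Of the genes of amino acid sensing by mTORC1, 6 of 35 tested were higher and 5 lower, shares near the 16.3% and 16.5% of all tested genes, with a median log2 fold change of -0.13. *Castor2*, a cytosolic protein related to the arginine sensor CASTOR1, was at 35.5, 22.3 and 23.3 CPM with vehicle and at 207, 228 and 212 CPM with RGS. *Castor2* was the gene of this list furthest from 0 (log2 fold change 2.99, SE 0.19, edgeR adjusted p = 1.68e-09). *Akt1s1* (0.79), *Tsc2* (0.55) and *Lamtor2* (0.67), which code for inhibitors and an anchor of the kinase, were also higher, although the *Lamtor2* groups overlapped. The others called higher were *Rraga* (0.48) and *Rptor* (0.48), which are not inhibitors. *Fnip1* (-1.05), *Lamtor3* (-0.99), *Lamtor5* (-1.13) and *Seh1l* (-0.57) were lower on the log2 scale.

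Among genes of glutamine, glutamate and glutathione metabolism, 6 of 22 tested rose and 8 fell, against 16.3% and 16.5% of all tested genes. The median log2 fold change was -0.28 beside -0.05 over all tested genes. Those that rose with the smallest p were glutathione reductase *Gsr* (log2 fold change 1.24), glutathione synthetase *Gss* (1.16), *Ggct* (1.59) and *Oplah* (1.19), the last of which act in the breakdown of glutamyl peptides. Those that fell with the smallest p were *Chac1*, *Asns* (-1.28), *Gpt2* (-1.28) and glutamate dehydrogenase *Glud1* (-0.78). *Chac1*, *Asns* and *Gpt2* are also on the amino acid response list, as is *Aldh18a1*, which fell too (-0.77). These falls are therefore counted in both lists. Exons of *Gss*, *Oplah*, *Cebpb*, *Atf5*, *Tsc2* and *Akt1s1* overlap genes on the opposite strand, and the strand setting of the counting is not given in the sources used here.

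Amino acid and peptide carriers outside the 7 families were a comparison for the members. Of 18 tested, 4 rose and 0 fell in edgeR, against 16.3% and 16.5% of all tested genes, with a median log2 fold change of 0.41 beside -0.05. *Slc17a6*, *Slc17a7* and *Slc25a2* were among those that passed the filter through the RGS tumors only, so they could hardly be called lower. *Slc17a6* is among the 4 that rose, and its call is not separate support for a rise of these carriers. In edgeR 1 gene, *Slc25a15*, was lower at an unadjusted p under 0.05, and DESeq2 called 0 and limma voom 1 lower. *Slc25a29*, a mitochondrial carrier of basic amino acids, rose by 1.24 on the log2 scale, *Pqlc2*, a lysosomal carrier of the same substrates, by 1.14, and *Slc15a4*, a lysosomal carrier of histidine and peptides, by 0.67. *Slc17a6*, a vesicular glutamate carrier, was called higher with 0 counts in every vehicle tumor and 21, 0 and 16 counts with RGS, so its groups overlapped.

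**Figure D5:**
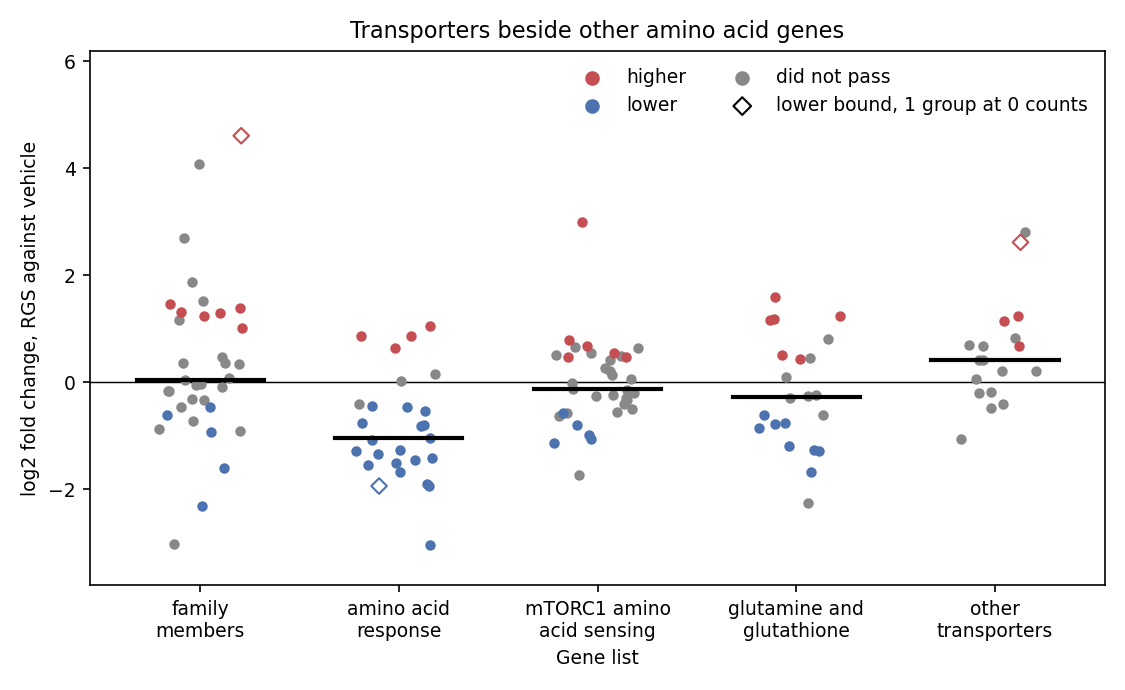
Log2 fold change of each tested gene in the 7 families and in 4 related lists, with 1 point per gene and the median as a black line. Red points rose, blue points fell and grey points did not pass in edgeR, and open diamonds are lower bounds for genes with 0 counts in every tumor of 1 group. The median of the amino acid response list lies at -1.04 and that of the members at 0.03.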

How the data were processed

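Whole tumors (6) were stored in RNAlater before extraction. The table that the authors deposited holds raw counts for each gene, not normalized, beside gene lengths and GRCm38 positions. Per the submitters' processing notes, cutadapt 1.18, FastQC 0.11.7, STAR 2.7.1a, featureCounts 1.6.4 and the build mm10 were used. Whether strand was used in counting, and what was done with multi-mapping reads, is not given in the sources used here. Such reads could be lost between near-identical genes, and overlapping genes on opposite strands could share reads.

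From the deposited counts, genes with a median of at least 5 counts in at least 1 group (15355 genes) were scaled with TMM factors and compared with edgeR 4.0.16 (quasi-likelihood F test, no covariates, Benjamini-Hochberg adjustment) in R 4.3.3. Standard errors were taken as log2 fold change over the square root of F. CPM use the TMM-scaled library, and RPKM divide them by the table's gene length, which equalled the joined exons of GENCODE M21 for the 61 members found there. Single ratios were compared by exact permutation. Replicates differed by more than sampling noise (chi-square per degree of freedom of at least 19.8 for each pair of a group). In CPM, 3 counts were worth 0.0856 to 0.226, a floor that covers counting error only. The labels give no batch. The script was tested on simulated data.

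Members and lists were chosen with earlier results of these data known. Named are members past the threshold with a mean of at least 1 CPM in a group, a set list of members with known roles in tumor or immune cells, and up to 4 genes in each direction of each related list by smallest p. *Atf4*, the mast cell list and the remaining genes named, including those of the lists of cell type markers, were chosen after values were seen. Alternatives were RLE and upper-quartile factors, library size only, 2 other filters, the robust option, DESeq2 1.42.0 (the tool the study used), limma 3.58.1 voom with quality weights, stricter thresholds, mitochondrial and ribosomal protein genes left out, counts thinned to the smallest library, and each tumor left out in turn.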

Additional observations from a re-analysis of the deposited data

How the results depend on the processing

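Results were recomputed under 12 other settings and with each of the 6 tumors left out. *Slc1a5*, *Slc7a3*, *Slc7a11*, *Slc38a10*, *Slc6a4*, *Slc6a6*, *Slc6a8* and *Slc6a17* kept their direction and their call in all 18, and of 377 gene values over 21 named genes 344 kept both, 16 lost and 7 gained a call and 10 turned direction. The members that rose numbered 7 and went to 11 with limma voom (6 to 10 with a tumor left out). The members that fell numbered 5 and went to 2 at an adjusted p under 0.01 and 2 at a minimum absolute log2 fold change of 1 (3 to 5 with a tumor left out, 3 without vehicle tumor 7 or RGS tumor 12). Of the calls of members, 58.3% were higher, against 68.8% with limma voom, 75.0% at an adjusted p under 0.01, 77.8% at the fold minimum, 76.9% without vehicle tumor 7 and 70% without RGS tumor 12. Their median log2 fold change of 0.03 was 0.24 with limma voom and lay between -0.13 (without vehicle tumor 9) and 0.35 (without vehicle tumor 7). Of all genes, 1607 were higher and 1562 lower at an adjusted p under 0.01, and 1168 and 1450 at the fold minimum. Library size only moved the median of all genes from -0.05 to -0.19 and the share of higher calls from 49.7% to 37.2%.

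Of the mTORC1 genes, those called higher numbered 2 with library size only, 12 with limma voom, 2 at an adjusted p under 0.01 and 1 at the fold minimum (2 to 11 with a tumor left out), and those called lower 3 and 2 at these stricter thresholds (3 to 5 with a tumor left out). Of these, 11 were higher without vehicle tumor 7, 3 without vehicle tumor 8 and 2 without RGS tumor 12, and 3 were lower without vehicle tumor 8. Carriers outside the families went to 2 higher at an adjusted p under 0.01 (2 to 4 with a tumor left out, 2 without vehicle tumor 8) and 1 lower with limma voom (0 to 1, with 1 lower without RGS tumor 10). At the fold minimum 1 amino acid response gene was higher and 4 glutamine and glutathione genes were lower.

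Members that turned direction were without a call throughout: *Slc43a2* (-0.0644) and *Slc36a1* (-0.12) with library size only and *Slc7a1* (0.0912) with limma voom. With a tumor left out, *Slc7a1* ranged from -0.19 to 0.21, *Slc43a2* from -0.24 to 0.56 and *Slc36a1* from -0.15 to 0.29. *Slc1a4* was also lost with RLE factors (adjusted p = 0.0535 in edgeR). *Slc38a2* passed with limma voom (adjusted p = 0.00330) and without vehicle tumor 7 (0.00908). The cause of these shifts was not tested. No paired analysis was possible because the vehicle tumors are numbered 7 to 9 and the RGS tumors 10 to 12, so the groups share no number. Depth limits the 29 members that were not tested: a carrier at 0 counts may be present below 3 counts per library.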

Other observations

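Markers of other cells a tumor can hold are given here as values. Fibroblast markers summed to between 375 and 572 CPM with vehicle and between 277 and 305 CPM with RGS, with *Col1a2* (log2 fold change -0.73), *Pdgfra* (-0.70) and *Pdgfrb* (-2.20) lower and *Dcn* (3.24) higher. Macrophage markers summed to between 65.1 and 71.0 CPM with vehicle and between 83.0 and 107 CPM with RGS, where *Cd14* was higher (log2 fold change 1.66) and 8 of the 10 markers had at most 7 counts in a tumor. Endothelial markers summed to between 0.946 and 1.20 CPM with vehicle and between 3.24 and 11.3 CPM with RGS, *Cdh5* making up most of the RGS sums. *Cdh5* was called higher (log2 fold change 3.47), while *Pecam1* (1.88) and *Tek* (-1.88) did not pass. *Kdr* and *Cldn5* had at most 6 counts in a tumor, and *Emcn* had 0. Keratinocyte markers summed to at most 1.72 CPM with vehicle and to between 6.72 and 20.99 CPM with RGS, through *Ivl*, a cornified envelope gene, with 0 counts in every vehicle tumor and 124, 151 and 321 counts with RGS, while *Krt1* and *Trp63* had 0. Of the T cell genes *Trac* had 0 counts with vehicle and 30, 16 and 10 with RGS. *Cd4* went the other way, with 14 counts in vehicle tumor 9 and 0 in every other tumor. The remaining 7 of the 9 T and NK cell markers had 0 counts in all 6 tumors. Markers of melanocytes, B cells, neutrophils and adipocytes overlapped between the groups in their summed CPM. Markers of skeletal muscle and Schwann cells summed to less with RGS, at no more than 12.8 CPM in a tumor. The part of these cells in the transporter values was not tested.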
